A study of Mus musculus with 4 samples.

Results

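The genes described here are the pannexins Panx1, Panx2 and Panx3 and the connexins Gja1, Gja4, Gjb2, Gjb6 and Gjc1, 8 of 34547 genes listed in the data. They were taken by name, and the estimated counts and TPM of all transcripts of each gene were summed. RNA was sequenced from mouse forelimb cartilage of the C57BL/6 strain, cut from cryosections by laser microdissection. Hypertrophic chondrocytes (HC, replicates 3 and 4) came from embryos at E15.5 and proliferating chondrocytes (PC, replicates 1 and 2) from embryos at E14.5. How the zones were told apart in the sections is not stated in the sources used here. The labels give no mutation and no treatment for either group. Cell state and embryonic stage differ together and cannot be told apart, and in tissue of this kind fewer cells of a type and less RNA per cell cannot be told apart either.

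Connexins assemble in rings of subunits in the cell membrane, and rings of neighbouring cells dock to form gap junctions that pass ions and small molecules. Pannexins have a similar fold but mostly form channels of a single membrane, through which ATP leaves the cell. Chondrocytes of the growth plate sit apart in their matrix, so that unpaired channels are of interest there beside cell contacts. Panx3 is the pannexin of cartilage, bone and skin, and in mice it has been linked to ATP release and to the onset of hypertrophy. Gja1 (Cx43) is the main connexin of cartilage and bone.

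Libraries held 15246529 to 21866266 estimated counts in HC and 30373440 to 36644496 in PC. Chondrocyte markers (Col2a1, Acan and 6 others) were abundant in every library, with summed levels of 32572 and 37807 CPM (counts per 1000000 counts of the TMM-scaled library) in HC and 51248 and 41934 CPM in PC. Markers of hypertrophy (Col10a1, Ihh and 5 others) summed to 32866 and 39820 CPM in HC and to 261.5 and 1607 CPM in PC. Mitochondrial transcripts took 20.23% and 14.17% of counts in HC, against 8.86% and 13.22% in PC. The gene model Gm10800 took 8.78% of counts in HC replicate 3 and 1.76% to 2.68% in the other libraries. The median difference between effective and annotated transcript length was -124.7 and -145.5 bases in HC and -172.8 and -153.3 bases in PC. Within each group the libraries differed beyond counting noise, with chi-square divided by its degrees of freedom at 193.3 in HC and 101.9 in PC.

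Gja1 was the member that rose. It had 698 and 915 CPM in HC replicates 3 and 4 and 129 and 185 CPM in PC replicates 1 and 2. Both HC libraries stood above both PC libraries, and the lower HC value was 3.78 times the higher PC value, while libraries of a group differed by 1.31 times in HC and 1.44 times in PC. This amounted to a log2 fold change of 2.36 ± 0.37 (SE, n = 2 libraries each), a 5.15-fold rise with an edgeR adjusted p of 0.037. In the same test 2.75% of the 16607 genes rose and 1.96% fell. Without single libraries the log2 fold change was 2.09 to 2.62 and passed each time. In each such fit 1 group is a single library, assumed to vary like the other group's pair, and the share of all genes that passed was 3.49% and 6.26% without PC replicate 1 or 2 and 28.3% and 39.0% without HC replicate 3 or 4. With scaling to library size alone it was 2.13 with an edgeR adjusted p of 0.0585, a setting under which 0.0% of genes passed and 4394 had an unadjusted p under 0.05. With transcript lengths as an offset it was 2.29 (edgeR adjusted p = 0.0471), and without mitochondrial genes and Gm10800 it was 2.37 (0.037).

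Gja1 lies on chromosome 10 from 56377330 to 56402513 on the plus strand (GRCm38). Nearly all its TPM came from the transcript Gja1-201, which has 2 exons and codes for 382 amino acids: 96.5% and 97.8% in HC and 90.8% and 96.7% in PC. The other transcripts of the gene each had at most 5.3% of its TPM in any library. The rise was thus seen in the transcript that encodes the whole protein, at 184 and 381 TPM in HC against 62.8 and 81.1 TPM in PC. The promoter of this gene is printed because Gja1 was the member that passed the test. It runs from 250 bases before to 50 bases after the RefSeq start, at chr10:56377050-56377349 on the plus strand of GRCm38.p6, and the capitals mark a match to the AP-1 motif.

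Gja1 promoter: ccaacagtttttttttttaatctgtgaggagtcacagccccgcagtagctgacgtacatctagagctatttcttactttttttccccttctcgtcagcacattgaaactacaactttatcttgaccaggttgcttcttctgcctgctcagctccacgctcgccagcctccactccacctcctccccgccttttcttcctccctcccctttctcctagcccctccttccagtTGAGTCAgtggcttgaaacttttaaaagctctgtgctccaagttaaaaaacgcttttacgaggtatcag

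That match lies 19 to 13 bases before the RefSeq start. Promoters of 5 of the 8 genes (Gja1, Gja4, Gjb2, Gjb6 and Panx1) were matched by symbol and searched on both strands. The motifs were AP-1 (TGANTCA), RUNX (TGTGGT), the GC box (GGGCGG) and the TATA box (TATAAA). They are held by 7.81%, 16.8%, 35.7% and 13.6% of 32851 mouse promoters of the same length. The AP-1 match of Gja1 was the 1 match in its promoter and overlapped no other motif. Panx1 held 2 RUNX matches, Gjb2 held 2 GC boxes and Gja4 held 1, while the Gjb6 window held none of these motifs. A match is a description of the letters and not a bound site.

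Panx3 was the other abundant member, and it was higher in both HC libraries without passing the test. It had 381 and 476 CPM in HC replicates 3 and 4, against 167 and 156 CPM in PC replicates 1 and 2. The groups did not overlap, and the lower HC value was 2.28 times the higher PC value. On the log2 scale the fold change was 1.40 ± 0.30 (SE, n = 2 libraries each), a fold of 2.65, with an edgeR adjusted p of 0.0597. Of all genes tested, 6.46% had an equal or lower p, and the smallest adjusted p of any gene was 0.0359. Panx3 passed without HC replicate 3 (log2 fold change 1.52, edgeR adjusted p = 0.01) or without HC replicate 4 (1.19, 0.0246), fits in which 28.3% and 39.0% of all genes passed. It did not pass without PC replicate 1 (1.42, 0.306) or PC replicate 2 (1.33, 0.277), when 3.49% and 6.26% of all genes passed. With DESeq2, which called 19.5% of genes, its adjusted p was 6.93e-05, and with no filter on low counts, where 7.98% of genes passed, edgeR gave 0.0319. A length offset gave 1.31 (0.0971), and leaving out mitochondrial genes and Gm10800 gave 1.41 (0.0592).

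Panx3 lies on chromosome 9 from 37659902 to 37669235 on the minus strand. Its coding transcript Panx3-201, with 4 exons and 392 codons, took 95.1% and 92.5% of its TPM in HC and 90.5% and 88.7% in PC. The rest was almost all Panx3-203, which retains an intron, with 4.9% and 7.5% in HC and 9.0% and 10.4% in PC. The share of that form was below both PC values in both HC libraries, a difference that was not tested.

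**Figure D1:**
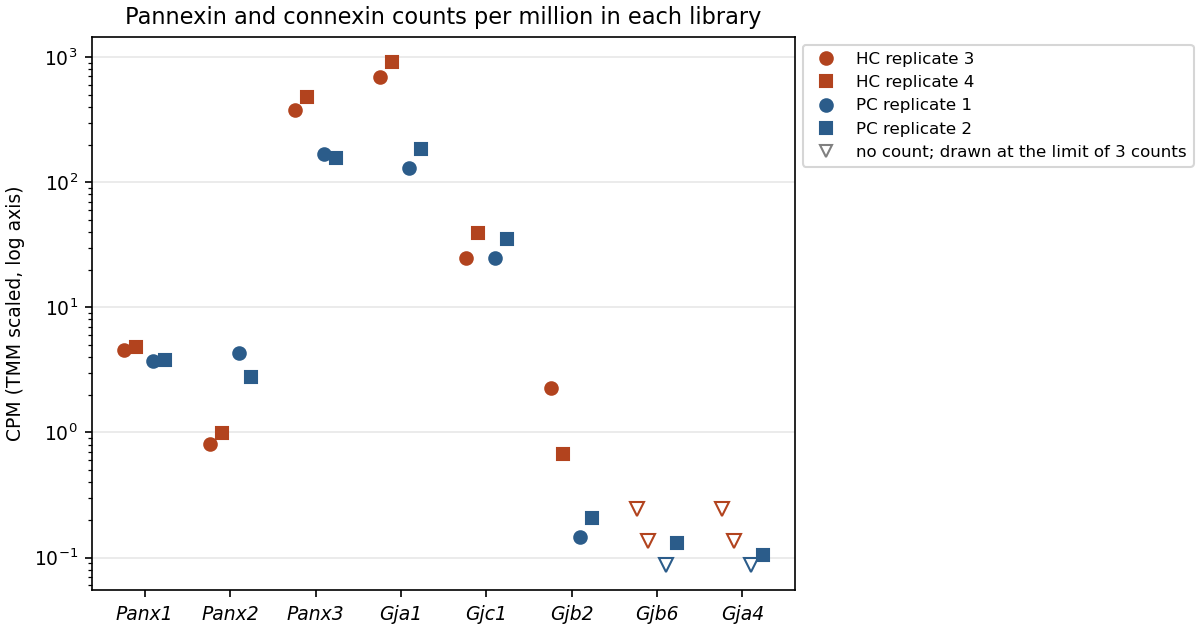
CPM (TMM scaled, log axis) of the 8 genes in each library, with circles and squares for the 2 libraries of a group and open triangles for libraries with no count, drawn at the limit of 3 counts. Gja1 and Panx3 stand far above the other members, with both HC points above both PC points, while Panx2 has both HC points below both PC points.

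The remaining pannexins were scarce. Panx1, the broadly expressed ATP release channel (chromosome 9, 15002128 to 15045478, minus strand), had 4.55 and 4.86 CPM in HC and 3.72 and 3.79 CPM in PC. Its groups were narrowly apart, and the log2 fold change of 0.33 ± 0.59 was smaller than its error (edgeR adjusted p = 0.771). Most of its TPM came from the short transcript Panx1-204 of 357 bases, with 91.4% and 82.0% in HC and 84.5% and 88.0% in PC. The transcript of the whole protein, Panx1-202, held 0 and 13.7 estimated counts in HC and 70.8 and 39.2 in PC. A level per length summed over transcripts therefore says little about the full Panx1 message.

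Panx2, a pannexin best known from the nervous system (chromosome 15, 89059734 to 89073567, plus strand), was lower in both HC libraries. It had 0.812 and 0.99 CPM in HC replicates 3 and 4, from 10 and 22 counts, against 4.33 and 2.75 CPM in PC replicates 1 and 2, from 149 and 106 counts. At -1.96 ± 0.84 on the log2 scale, the difference missed the threshold (edgeR adjusted p = 0.201). It passed without HC replicate 3 (-1.86, edgeR adjusted p = 0.0414) or HC replicate 4 (-2.16, 0.0269), when 28.3% and 39.0% of all genes passed and the spread came from the PC pair alone. It did not pass when a PC library was left out. A gene on the opposite strand, 1810021B22Rik, overlaps Panx2 and had no transcript among those quantified and matched here. Where strand was not used, its reads in the overlap could therefore be counted as Panx2.

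Gjc1 (Cx45), a connexin of early mesenchyme, heart and vessel wall (chromosome 11, 102799579 to 102819700, minus strand), was the second connexin in abundance. It had 24.6 and 39.6 CPM in HC and 24.9 and 34.9 CPM in PC, so the groups overlapped fully. The log2 fold change was 0.10 ± 0.38 (edgeR adjusted p = 0.892), and its sign turned with the scaling, to -0.11 by library size alone. The 3 transcripts that encode its whole protein of 396 codons divided its TPM unevenly. Gjc1-203 took 78.4% and 15.9% in HC and 41.0% and 10.7% in PC, while Gjc1-202 took 12.3% and 83.0% in HC and 28.1% and 45.4% in PC. Gjc1-201 had estimated counts that round to 0 in both HC libraries and 160.4 and 403.9 estimated counts in PC. All 3 encode a protein of the same length, and the error of this estimated division is unknown here.

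Gjb2 (Cx26), a connexin of epithelia, inner ear and liver (chromosome 14, 57098600 to 57104702, minus strand), was near the limit of detection. It had 28 and 15 counts in HC replicates 3 and 4, or 2.27 and 0.675 CPM, and 5 and 8 counts in PC replicates 1 and 2, or 0.145 and 0.208 CPM. Both HC libraries were above both PC libraries, but they differed from each other by 3.37 times. The difference of 3.02 ± 1.21 on the log2 scale missed the threshold (edgeR adjusted p = 0.18). It was 3.60 and passed without HC replicate 4 (edgeR adjusted p = 0.0129), as did 39.0% of all genes, and was 1.88 without HC replicate 3, which did not pass. Gjb2 was kept for testing through its HC values alone.

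Gjb6 (Cx30), which lies beside Gjb2 on chromosome 14 from 57123303 to 57133611 and often acts with it in epithelia, had no count in HC and 0 and 5 counts in PC replicates 1 and 2. Those 5 counts came from a transcript with a retained intron, and no coding form had any. Gja4 (Cx37), the connexin of arterial endothelium (chromosome 4, 127311421 to 127314039, minus strand), had no count in HC and 0 and 4 counts in PC. A count of 0 allows up to 3 counts, which is 0.244 and 0.135 CPM in HC replicates 3 and 4 and 0.0872 CPM in PC replicate 1. The PC values of 0.13 CPM for Gjb6 and 0.104 CPM for Gja4 lie below those HC limits, so a difference was not detectable at this depth. Both genes failed the filter on low counts and were not tested.

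Of the 6 members tested with edgeR, 1 rose, 0 fell and 5 did not pass, beside 2.75% and 1.96% of all genes. At an unadjusted p under 0.05, which 27.0% of all genes reached, there were 3 higher and 0 lower, 1 of them Gjb2. DESeq2, which called 19.5% of genes, called 2 higher and 0 lower. Both HC libraries stood above both PC libraries in 4 of the 6 and below them in 1, while 27.7% and 33.3% of all genes did so. Groups apart in this way were common across the transcriptome, at 61.0% of genes in either direction, so 5 of 6 members is no result about the members. Differences between members were not tested.

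**Figure D2:**
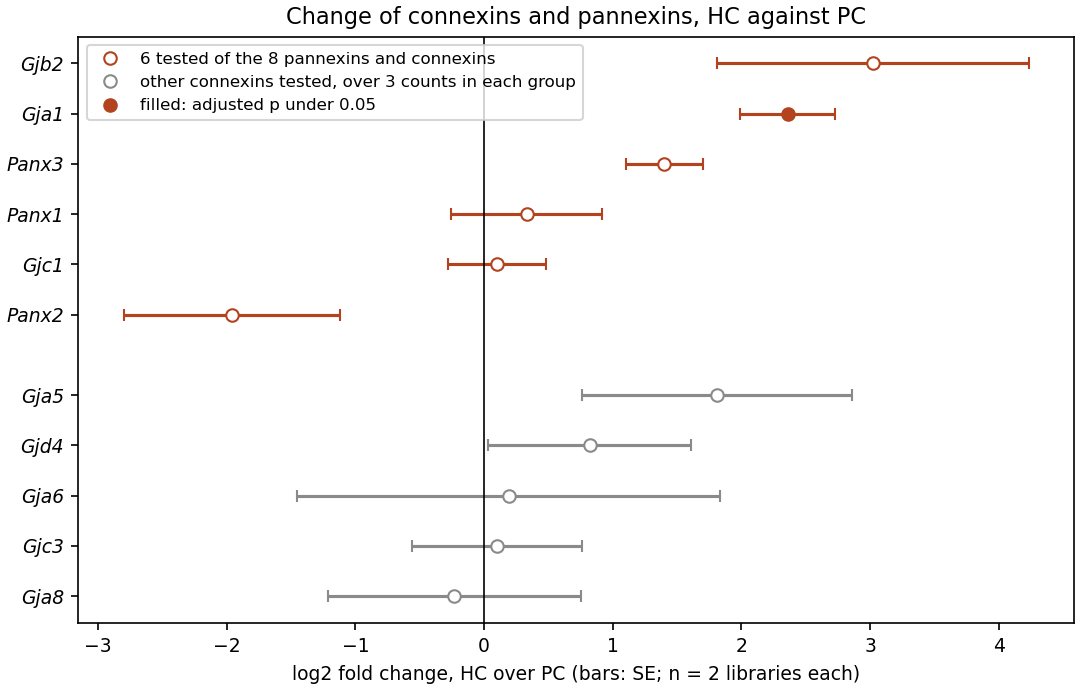
Log2 fold change of HC over PC with its SE (n = 2 libraries each) for the 6 tested members and for other connexins with more than 3 counts in each group. Gja1 is the filled point at 2.36, the gene with an adjusted p under 0.05, and the interval of Gjc1 at 0.10 spans 0.

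Levels of different genes can be set side by side per length, as TPM. Gja1 had 191 and 390 TPM in HC and 69.1 and 83.9 TPM in PC, and Panx3 had 130 and 258 TPM in HC and 113 and 92.7 TPM in PC. Gja1 was thus the most abundant member in both HC libraries, and Panx3 in both PC libraries. The ratio of Gja1 to Panx3 within a library was 1.47 and 1.51 in HC, against 0.614 and 0.905 in PC. This ratio does not depend on how libraries are scaled to each other. On the log2 scale it averaged 0.57 in HC and -0.42 in PC, a difference of 1.0, and in an exact two-sided permutation test p was 0.333, the smallest that 2 libraries against 2 can give. Between their main coding transcripts the ratio was 1.49 and 1.60 in HC and 0.616 and 0.986 in PC, so the order in PC replicate 2 was close to even.

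**Figure D3:**
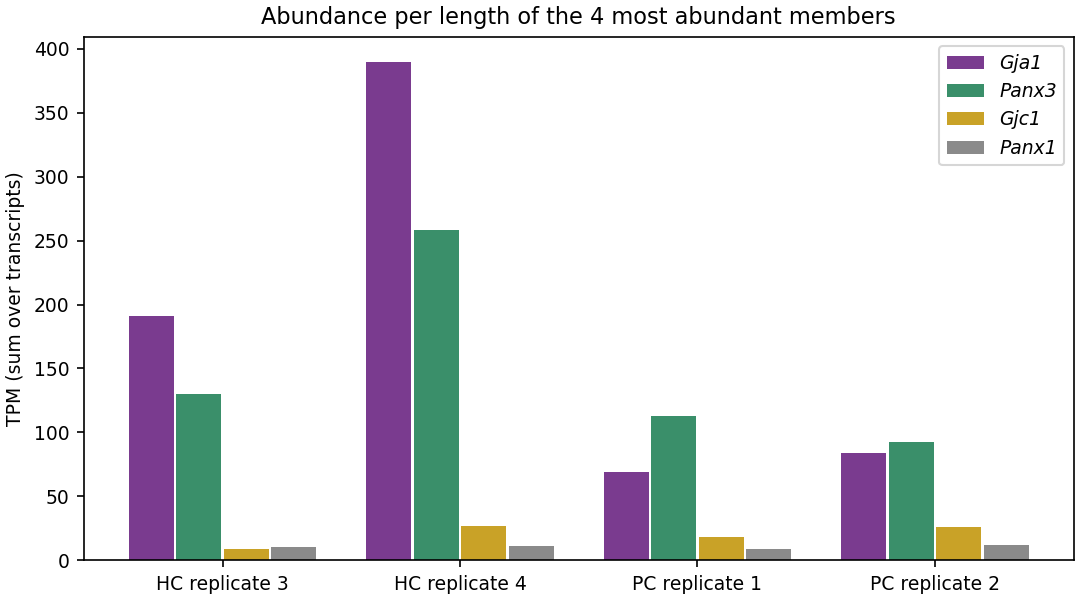
TPM, summed over transcripts, of the 4 most abundant members in each library. The Gja1 bar is taller than the Panx3 bar in both HC libraries, at 191 against 130 and 390 against 258 TPM, and shorter in both PC libraries, at 69.1 against 113 and 83.9 against 92.7 TPM.

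Together Gja1 and Panx3 made up 94.2% and 94.3% of the summed TPM of the 8 genes in HC and 86.1% and 81.8% in PC. Gjc1 took 2.57% and 3.90% in HC and 8.69% and 11.83% in PC, and Panx1 took 2.94% and 1.66% in HC and 4.05% and 5.40% in PC. Gjc1 and Panx1, next in abundance, exchanged places between the HC libraries, at 8.74 and 26.8 TPM for Gjc1 and 10.0 and 11.4 TPM for Panx1, so their order in HC does not exceed that spread. Most of the Panx1 level is that of the short transcript Panx1-204, which limits this ranking. Panx2, Gjb2, Gjb6 and Gja4 each stayed under 1.2% in every library.

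The genes whose profile over the 4 libraries was most like that of Gja1, of 8188 compared, were Arhgdib, a regulator of small GTPases, Myo10, a motor of filopodia, and Ston2, an endocytic adaptor, at distances of 0.117, 0.121 and 0.136 on the log2 scale. They rose by 2.42 ± 0.40, 2.46 ± 0.35 and 2.53 ± 0.35 (SE, edgeR adjusted p = 0.0392, 0.0359 and 0.0359), and Arhgdib missed the threshold when PC replicate 1 was left out (2.09, 0.115) or with a length offset (2.37, 0.0606). Closest to Panx3 were the interleukin receptor Il17ra, the podosome scaffold Sh3pxd2b and the secreted protein Scube1, at 0.06, 0.065 and 0.081. Their log2 fold changes were 1.48, 1.36 and 1.35 and missed the threshold, like that of Panx3 (edgeR adjusted p = 0.0957, 0.0585 and 0.0611). With 4 libraries in 2 groups, such likeness mainly reflects a similar difference between groups.

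The other 15 connexin genes gave no call. Of these, 6 were tested, and in edgeR 0 rose and 0 fell, with 9 too low to test. At an unadjusted p under 0.05 there was 1, beside 27.0% of all genes. DESeq2 called 1 higher, beside 19.5% of all genes. The 6 had a median log2 fold change of 0.50 where all genes had -0.04. Gjc3 (Cx29), a connexin of myelinating glia, had 3.33 and 3.87 CPM in HC and 3.69 and 3.04 CPM in PC, and Gjd4 (Cx39) had 3.98 and 2.30 CPM in HC and 1.66 and 1.90 CPM in PC. Gja3 (Cx46), the lens connexin, had 125 and 10 counts in HC replicates 3 and 4 and 0 and 1 count in PC. Its ratio of HC to PC was 285 with an exact 95% counting interval of 50.3 to 11344, with an edgeR adjusted p of 0.0809. Nearly all its HC counts came from replicate 3, and without that library it was too low to test. Like Gjb2, Gja3 was kept for testing through its HC values alone. It passed when PC replicate 2 (edgeR adjusted p = 0.0172) or HC replicate 4 (0.000297) was left out, with no filter on low counts (0.00808) and with DESeq2 (0.000395).

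Proteins that bind or phosphorylate Gja1 included several that passed. Of 17 junction partners tested, 4 rose and 1 fell, a share of 29.4% beside 4.71% of all genes, and their median log2 fold change was 1.46. Tjp1, the scaffold that holds the tail of Gja1 at the junction, had 516 and 577 CPM in HC and 101 and 153 CPM in PC, a rise of 2.10 that was 1.80 and no longer passed when PC replicate 1 was left out (edgeR adjusted p = 0.107). Dbn1, an actin-binding protein that also holds that tail, had 127 and 140 CPM in HC against 10.8 and 15.6 CPM in PC, a rise of 3.33. Cdh2, the cadherin of mesenchymal contacts, rose by 2.68, and by 2.06 without HC replicate 3. The kinase Prkca had 22.8 and 23.9 CPM in HC and 80.0 and 86.8 CPM in PC, a fall to a log2 fold change of -1.84. Its relative Prkcd, chosen after its values were seen, rose by 1.94 (edgeR adjusted p = 0.0498) and missed the threshold when PC replicate 1 or 2 was left out (0.155 and 0.204). Ctnnb1, the catenin that binds Cdh2 and was likewise chosen after its values were seen, had 298 and 396 CPM in HC and 365 and 299 CPM in PC. With a length offset Tjp1, Prkca and Prkcd no longer passed (edgeR adjusted p = 0.107, 0.0711 and 0.0712).

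Other routes by which ATP or pyrophosphate leave the cell held 2 genes that rose and 0 that fell of 7 tested. The share called was 28.6%, beside 4.71% of all genes. Ank, which exports pyrophosphate and ATP-linked substrates, had 103 and 144 CPM in HC and 12.6 and 18.6 CPM in PC, and the scramblase Ano6 had 124 and 92.2 CPM in HC and 12.3 and 23.2 CPM in PC. Their log2 fold changes were 2.99 and 2.60. The volume-regulated channel subunit Lrrc8a and the mitochondrial channel Vdac1 did not pass, with overlapping groups. Lrrc8a had 47.1 and 149 CPM in HC and 63.0 and 42.5 CPM in PC, and Vdac1 had 106 and 55.9 CPM in HC and 112 and 101 CPM in PC. The median of the 7 was 0.86.

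Receptors that read extracellular nucleotides gave no call. Of 14 P2 receptor genes 9 were tested, and in edgeR 0 rose and 0 fell, with a median of -0.25. At an unadjusted p under 0.05 there were 2, both lower in HC, beside 27.0% of all genes, and DESeq2 called 0. These were P2ry13 and P2rx3, which were kept for testing through their PC values alone. P2rx4, an ATP-gated channel, was the most abundant at 14 and 21.8 CPM in HC and 14.1 and 11.1 CPM in PC. P2rx7, which opens at high ATP and is often studied beside Panx1, had 6.74 and 0.54 CPM in HC and 4.33 and 4.23 CPM in PC, so the HC libraries lay on either side of both PC libraries. P2ry14, a receptor of nucleotide sugars, had 5.03 and 10.5 CPM in HC and 5.75 and 9.32 CPM in PC. P2ry2, a receptor of ATP and UTP, had 0 and 0.675 CPM in HC and 2.12 and 0.934 CPM in PC. P2ry13 and P2rx3, chosen after their values were seen, had 0 counts in HC. Summed over both PC libraries, P2ry13 had 75 counts and P2rx3 had 37. Taking 3 counts over the HC libraries as the limit, they were at least 11.8-fold and 5.84-fold lower in HC. Their edgeR adjusted p values were 0.0881 and 0.11.

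Enzymes that break down nucleotides included genes called in each direction. Of 14 tested, 2 rose and 2 fell, a share of 28.6% beside 4.71% of all genes, with a median of 0.42. Alpl, the phosphatase that clears pyrophosphate in mineralising matrix, had 179 and 216 CPM in HC and 3.55 and 13.2 CPM in PC, a rise of 4.56, with 3.87 without PC replicate 1 and 5.77 without PC replicate 2. Entpd3, which cleaves ATP at the cell surface, rose by 2.58, from low counts at 16.9 and 13.3 CPM in HC against 2.21 and 2.83 CPM in PC. Entpd6 and Entpd7, which act mainly inside the secretory pathway, had log2 fold changes of -2.45 and -1.69. When PC replicate 1 or 2 was left out, Entpd3 missed the threshold (edgeR adjusted p = 0.232 and 0.109), as did Entpd6 and Entpd7 when PC replicate 1 was (0.395 and 0.301). With a length offset Entpd3, Entpd6 and Entpd7 did not pass (0.0664, 0.0606 and 0.158), and with DESeq2's size factors in edgeR neither did Entpd6 and Entpd7 (0.0508 and 0.05). Of 6 adenosine receptors and nucleoside transporters tested, 0 passed in edgeR. At an unadjusted p under 0.05 there was 1, beside 27.0% of all genes. DESeq2 called 1 higher, beside 19.5% of all genes, so these counts are no result about the list. The lysosomal transporter Slc29a3 had 92.6 and 121 CPM in HC and 38.9 and 59.5 CPM in PC, and the surface transporter Slc29a1 had 17.5 and 31.6 CPM in HC and 26.5 and 15.4 CPM in PC. Adora3 and Slc29a2 stayed under 4 CPM in every library.

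**Figure D4:**
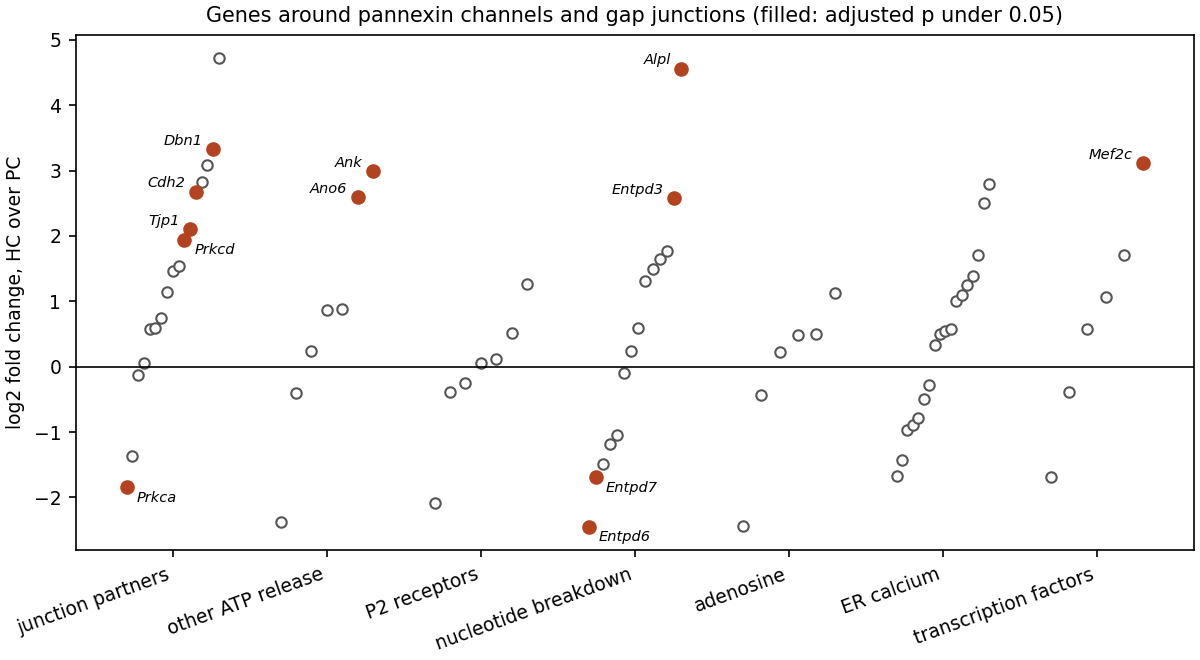
Log2 fold change of HC over PC for tested genes of 7 lists that surround pannexin channels and gap junctions, leaving out genes with 3 counts or fewer in a group; filled points have an adjusted p under 0.05. Filled points lie mostly above 0 among junction partners and other ATP release genes, on both sides of 0 among nucleotide breakdown genes, and are missing among P2 receptors, adenosine and ER calcium genes.

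Panx3 has also been described as a calcium channel of the endoplasmic reticulum. Of 19 genes of calcium store handling tested with edgeR, 0 rose and 0 fell, with a median of 0.50. At an unadjusted p under 0.05 there were 5 higher and 3 lower, where 27.0% of all genes stood. Atp2a1, among the lower ones, was kept for testing through its PC values alone. DESeq2 called 5 higher and 2 lower, where it called 19.5% of all genes. Among the most abundant was the calmodulin gene Calm2, which had 1185 and 765 CPM in HC and 216 and 378 CPM in PC (edgeR adjusted p = 0.0797). A second calmodulin gene, Calm3, had 461 and 272 CPM in HC and 239 and 261 CPM in PC. The calcium pump Atp2a2 had 119 and 127 CPM in HC and 254 and 230 CPM in PC, lower in both HC libraries but short of the threshold (edgeR adjusted p = 0.0993).

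Of 6 transcription factors of skeletal cells, 1 rose and 0 fell, a share of 16.7% beside 4.71% of all genes. Mef2c, a driver of hypertrophy, had 1340 and 1690 CPM in HC and 136 and 215 CPM in PC, a rise of 3.11 (edgeR adjusted p = 0.0359), and of 4.09 with a length offset. Runx2, reported in mice to bind the Panx3 promoter, had 370 and 697 CPM in HC and 154 and 172 CPM in PC, a log2 fold change of 1.71 ± 0.40 short of the threshold (edgeR adjusted p = 0.0705). Dlx5, a homeobox factor of bone, had 83.1 and 65.4 CPM in HC and 37.3 and 34.2 CPM in PC, and Sox9, which keeps the chondrocyte state, had 613 and 272 CPM in HC and 1515 and 1349 CPM in PC. Neither passed (edgeR adjusted p = 0.0942 and 0.0947). Both HC libraries stood above both PC libraries in 3 of the 6 factors and below them in 1, beside 27.7% and 33.3% of all genes, and the remaining factors, Sp7 and Msx2, overlapped between groups.

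Several members are also used by other cells of the limb, and the summed markers of those cells were higher in both HC libraries than in both PC libraries. Calls in these marker lists stand beside 2.75% of all genes that rose and 1.96% that fell. Osteoblast and perichondrium markers summed to 13535 and 4733 CPM in HC and 829.6 and 1306 CPM in PC, 2 of 9 tested rose, and Bglap2 was at 0 in HC. Col1a1, which did not pass (edgeR adjusted p = 0.0529), held 9312 and 3170 CPM of these HC sums. Endothelial markers summed to 287 and 148.7 CPM in HC and 31.0 and 28.5 CPM in PC, 3 of 10 tested rose, and Cldn5 was at 0 in PC. Epidermal markers summed to 115.4 and 205.9 CPM in HC and 11.3 and 13.2 CPM in PC, 2 of 8 tested rose, and Krt5 was at 0 in HC. Dsp alone held 85.2 and 149 CPM of the HC sums. Both HC libraries stood above both PC libraries in 5 of the 8, beside 27.7% of all genes, while Krt10, Trp63 and Sfn overlapped between groups. Sums for muscle were 313.4 and 77.9 CPM in HC and 26.0 and 36.9 CPM in PC, with 1 of 8 higher and Myod1 at 0 in HC. Those for macrophages were 165.8 and 64.1 CPM in HC and 10.8 and 18.2 CPM in PC, with 2 of 9 higher and C1qa at 0 in HC.

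Osteoclast markers summed to 1065 and 686.9 CPM in HC and 16.6 and 68.4 CPM in PC, with 2 of 5 higher. Mmp9, which did not pass (edgeR adjusted p = 0.0797), held 842 and 563 CPM of these HC sums. Red blood cell markers summed to 337.6 and 312.3 CPM in HC and 25.8 and 44.1 CPM in PC, with 4 of 8 higher and Hba-x at 0 in HC. Hbb-bt held 256 and 237 CPM of these HC sums. Nerve and glia markers summed to 41.5 and 46.6 CPM in HC and 26.2 and 26.3 CPM in PC, with 1 higher and 1 lower of 6, and Nefl at 0 in HC. The part of these cells in the results for Gja1 and Panx3 was not tested. Gja1 and Panx3 were higher in HC replicate 4 than in HC replicate 3, as were the epidermal and the nerve and glia sums, while the other 6 sums of these cells were lower there. Most of the nerve and glia sum was Mbp, at 30.5 and 37.5 CPM in HC, as most of the epidermal sum was Dsp. This order rests on the 2 HC libraries and was not tested.

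**Figure D5:**
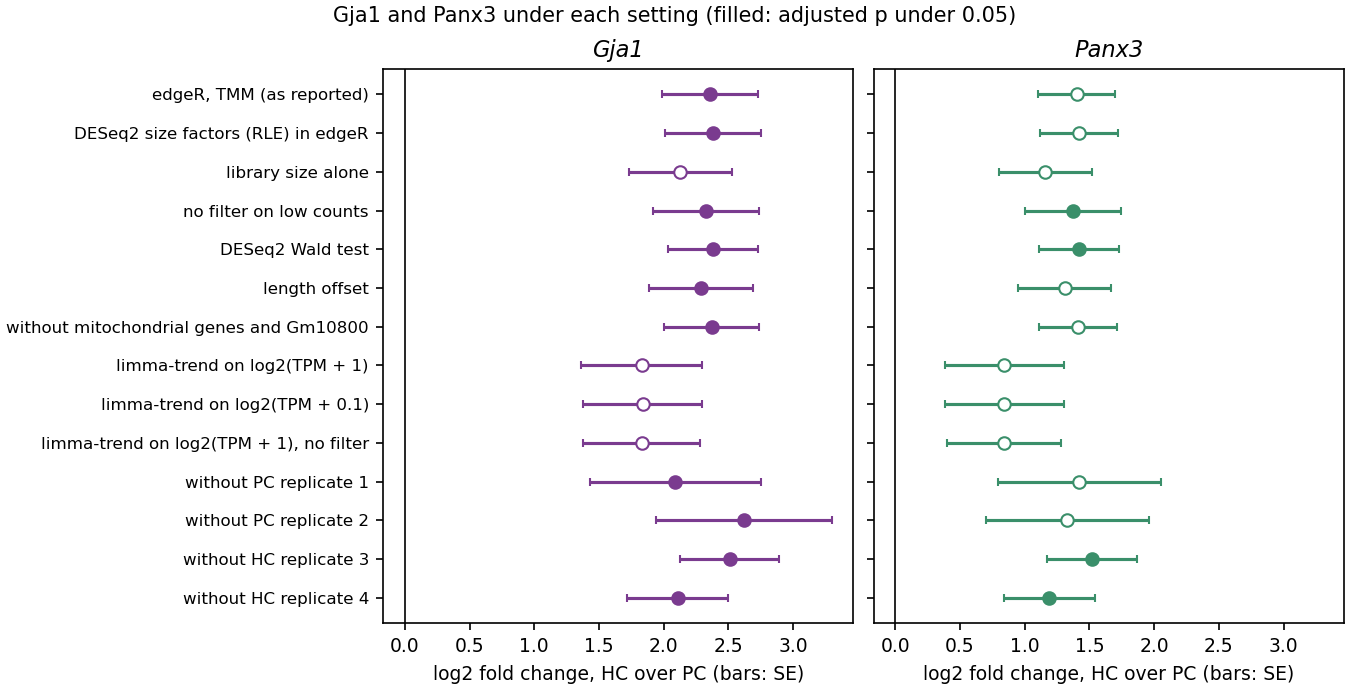
Log2 fold change of HC over PC with its SE for Gja1 and Panx3 under the reported fit and each alternative; filled points have an adjusted p under 0.05. Every point of both genes lies above 0, Gja1 between 1.83 and 2.62 and Panx3 between 0.84 and 1.52.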

How the data were processed

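Per the submitters' processing notes, the authors trimmed reads with Trimmomatic 0.36 and assigned them to transcripts with kallisto 0.43.1, with mouse build mm10. A strand setting was not stated by the labels or the headers. Each deposited table holds 1 row per transcript, with an estimated count and a TPM value (abundance per length, scaled to a fixed total) per the file headers. Here, 107987 of 109282 transcripts were matched to GENCODE M21 (GRCm38, which is mm10) by identifier, which gave 34547 genes.

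Gene counts are sums of the estimated counts over transcripts, rounded to integers. Genes that passed filterByExpr, 16607 in all, were scaled by the trimmed mean of M values (TMM) and tested for HC against PC with edgeR 4.0.16 (quasi-likelihood F-test, two-sided, Benjamini-Hochberg over all genes tested, threshold 0.05). "Rose", "fell" and "passed" refer to that test. TPM was summed per gene for levels between genes. Each SE was taken from the coefficient and its F statistic. The script was tested on counts simulated with the same spread (dispersion 0.05) for every gene. Of 100 genes changed 4-fold it recovered 99, and of 100 changed 8-fold it recovered 100. The spread of the real libraries was not simulated, so this checks the script and gives no error rate for the calls. Intervals and limits from counts cover counting error only. The labels do not say whether the 2 libraries of a group came from different animals, so p-values measure only the spread between these libraries, which may be technical.

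Alternatives were other scalings, no filter, DESeq2 1.42.0, a length offset, limma 3.58.1 on log2 TPM and leaving out each library. Software was matplotlib 3.10.9, SciPy 1.17.1, NumPy 2.4.6, pandas 2.3.3, Python 3.11.15 and R 4.3.3. The members and gene lists were chosen with earlier results of these data known. Named were all members, any other connexin whose mean reached 1 TPM in a group, and up to 4 genes per list, first those that passed and then the most abundant; some genes that the rule names are not reported here. The genes most like a member were those with the smallest Euclidean distance between log2(CPM + 0.5) profiles centred per gene, among protein-coding genes with a mean of at least 10 CPM. Promoters are from RefSeq (GRCm38.p6).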

Additional observations from a re-analysis of the deposited data

How the results depend on the processing

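No paired analysis was possible because the labels give the groups different replicate numbers. Log2 fold changes of Gja1, Panx3, Panx1, Panx2 and Gjb2 kept their sign under every alternative run. Gja1 did not pass by library size alone (2.13) or with limma on log2(TPM + 1), on log2(TPM + 0.1) or on all genes with log2(TPM + 1) (1.83, 1.84 and 1.83). Panx3 passed with no filter on low counts (1.37), where 7.98% of genes did, and with DESeq2 (1.42). It did not pass by library size alone (1.16) or with limma on TPM, where the log2 fold change was 0.84 in each fit. Over single libraries left out, Panx3 was at 1.19 to 1.52, Panx2 at -2.29 to -1.64 and Gjb2 at 1.88 to 3.60. Gjc1 turned to -0.11 by library size alone, to -0.0006 with a length offset and to -0.46, -0.50 and -0.46 on TPM, and ran from -0.33 to 0.37 without single libraries. The median of all genes was -0.29 by library size alone, -0.39, -0.59 and -0.17 on TPM, -0.25 with no filter and -0.11 and -0.21 without HC replicate 3 or 4, against -0.04.

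Genes higher and lower in HC, 457 and 325 in all, numbered 963 and 965 with no filter, 1651 and 1468 with DESeq2 and 268 and 165 with a length offset. They numbered 379 to 3331 and 257 to 3775 without single libraries. By library size alone and on TPM, 0 genes passed in edgeR and limma (4394, 4260, 3993 and 4543 at an unadjusted p under 0.05), so every list had 0. The counts that moved, higher then lower, were as follows. With no filter, 7.98% of all genes passed. Other connexins then had 1 higher, junction partners 7 and 2, nucleotide breakdown 4 higher, ER calcium 3 and 1, and transcription factors 2 and 1. DESeq2 called 19.5% of all genes. It gave other connexins 1 higher, junction partners 10 and 2, nucleotide breakdown 4 higher, adenosine genes 1 higher, ER calcium 5 and 2, and transcription factors 3 and 1. With a length offset, where 2.61% of all genes passed, junction partners had 2 and 0 and nucleotide breakdown 1 and 0. With DESeq2's size factors in edgeR, where 4.6% of all genes passed, 0 nucleotide breakdown genes were lower. Without single libraries, other connexins had 0 to 3 higher, junction partners 2 to 9 and 1 to 2, other ATP release 0 to 1 lower, P2 receptors 0 to 2 lower, nucleotide breakdown 1 to 6 and 0 to 3, adenosine genes 0 to 1 and 0 to 2, ER calcium 0 to 5 and 0 to 4, and transcription factors 1 to 3 and 0 to 1.

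Other signs that turned were as follows. Gjc3 was at -0.15 by library size alone, -0.12 on log2(TPM + 0.1) and -0.07 to 0.21 without single libraries. P2ry14 was at -0.15 by library size alone, -0.02 with a length offset, -0.35, -0.45 and -0.35 on TPM and -0.63 to 0.44 without single libraries. P2rx4 was at -0.01, -0.02 and -0.01 and Adora3 at -0.07, -0.11 and -0.07 on TPM. P2rx7 was at 0.98 with a length offset and ran from -3.01 to 0.61, Lrrc8a from -0.21 to 1.46 and Slc29a1 from -0.31 to 0.64 without single libraries. The cause was not tested. A count over settings covered the genes that the rule names in the lists other than cell markers, with Prkcd, Arhgdib, Myo10 and Ston2. Of these gene-by-setting results, 325 kept sign and call, 77 lost a call, 30 gained one and 22 changed sign. Where a fit gave no adjusted p, sign alone was compared. Other named genes were not in this count. Depth limits Gjb2, Gjb6, Gja4, Panx1 and Panx2, each of which had at most 149 counts in a library.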
